A study of Mus musculus with 12 samples.

Results

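RNA that an antibody against N6-methyladenosine (m6A) had pulled down from the kidneys of 3 wild-type mice was set against the RNA left unbound in the same kidneys. The measure was the log2 ratio of the immunoprecipitated fraction (IP, labelled with Cy5) to the supernatant (labelled with Cy3), read for every probe within the array that held both fractions of a kidney. A probe was included if it was no control spot and was well above background in both colours on at least 2 of the 3 wild-type arrays. This held for 22687 of 60823 probes, or 37.3%.

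m6A is the most abundant internal base modification of eukaryotic messenger RNA. It is written by a complex in which METTL3 is the catalytic subunit and METTL14 its partner, removed by the dioxygenases FTO and ALKBH5, and bound by readers of the YTH and IGF2BP families, which affect the splicing, stability and translation of the RNA that carries it. An anti-m6A antibody enriches modified transcripts, so a high ratio of IP to supernatant marks a transcript with more signal in the bound than in the unbound RNA relative to the median probe, and a low ratio marks one with less.

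The 3 wild-type (WT) animals were male C57BL/6 mice aged 6 to 8 weeks. Each received glyoxylate, which the body turns into oxalate, by intraperitoneal injection of 100 mg/kg in 200 µl every day for 7 days, a model of calcium oxalate crystals in the kidney. The whole series has 12 samples on 6 arrays. The other 3 arrays come from mice of the same strain, sex, age and treatment labelled as conditional knockout (cKO) of Mettl3, without a statement of the cells in which it was deleted, and they enter here only where named. Saline-injected kidneys are not analysed here, so every value belongs to the crystal model. The labels call the animals biological replicates. The labels are at odds on the second fraction: the protocol describes it as unmodified RNA taken from the supernatant, and the antibody field of these samples calls it input. It is treated here as supernatant. If it were input, each ratio would compare bound with total RNA.

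Well above background were 52.0%, 53.1% and 54.8% of the non-control probes in the IP colour on WT arrays 1, 2 and 3. In the supernatant colour the shares were 38.3%, 52.3% and 31.7%, so array 2 detected more of the supernatant than arrays 1 and 3. The supernatant decided the membership more often than the IP: 9588 probes outside the set passed in the IP but not in the supernatant, and 778 passed in the supernatant but not in the IP. By the same filter 29423 probes passed on the cKO arrays, of which 22562 passed on the WT arrays too. The dyes were not swapped between the fractions, so recovery by the antibody and a probe-specific dye bias cannot be told apart. Of 29 fixed cell type markers only Mzb1, a plasma cell gene, had a named probe, and it was outside the set, with the IP well above background on 3 of 3 arrays and the supernatant on 1 of 3. The label kidney was therefore not checked against tubule or glomerulus markers.

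The question of the comparison was which transcripts the antibody took from these kidneys. Ratios spread widely and evenly to both sides of the median probe. In limma's moderated test with Benjamini-Hochberg adjustment, 7539 probes lay above the median probe, 33.2% of those tested, and 7672 lay below it, 33.8%, together 67%. Ratios were centred on the median of each array, which makes both sides near equal. In bulk tissue the ratio is an average over all cells of the kidney, and the cell types that contribute to it cannot be told apart.

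At least 2-fold above the median probe and past the threshold were 4859 probes, and 4962 were at least 2-fold below it, 21.4% and 21.9% of those tested. Farther out the sides differed in number. At least 4-fold above were 1615 probes and below 1726, at least 8-fold 325 and 516, and at least 16-fold 46 and 148. The 1st percentile of the mean log2 ratio was -3.59 and the 99th was 3.16, so among members the lower tail reached farther from the median. The filter on both colours cut the sides unevenly. It left out 9588 probes that passed in the IP but not in the supernatant, and 778 of the reverse kind. Its part in the uneven tails was not tested.

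The calls rest on the difference between the colours, so the level in each colour is given as a description. Relative to the median of all members in the same colour, the probes called above had a median log2 signal of 1.09 in the IP and -0.37 in the supernatant. Those called below had -0.62 in the IP and 0.90 in the supernatant. Probes called above were thus brighter in the IP and dimmer in the supernatant than the median member, and probes called below the reverse. The probes without a call were dim in both, with medians of -0.52 and -0.49. Beside these, the probes called above differed mainly in the IP, and those called below mainly in the supernatant.

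The 3 kidneys ranked the probes in much the same way. Over the probes, which are not independent of each other, the ratios of the 3 pairs of arrays correlated at r = 0.916, 0.919 and 0.919. The same sign on all 3 arrays was found for 81.0% of the members and for 99.7% of those called. The second share follows largely from the test, which selected probes on these same 3 ratios. The median SD over arrays was 0.307 log2 units, and the smallest mean ratio that was called had a size of 0.448. No array stood apart in how often it held the highest value of a probe, with 32.5%, 35.9% and 31.6% for arrays 1, 2 and 3.

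Among probes well above background in both colours on all 3 arrays, the highest and lowest ratios belonged to identifiers that could not be paired with a gene here. Probe ASMM10EP3A100098887 had log2 ratios of 4.23, 4.58 and 5.48 on arrays 1, 2 and 3, a mean of 4.76 ± 0.64 (SD, n = 3) or 27.2-fold above the median probe. ASMM10EP3A100180827 had 4.18, 5.0 and 4.73, a mean of 4.63 ± 0.42 or 24.8-fold. Their order is within the spread over arrays. At the low end, ASMM10SM1100021473 gave processed signals of 144, 352 and 194 in the IP and 16943, 27351 and 28695 in the supernatant. Its ratios were -6.78, -6.12 and -7.17, a mean of -6.69 ± 0.53 or 103-fold below the median probe. ASMM10SM1100066852 had -6.73, -5.87 and -6.90, a mean of -6.5 ± 0.55 or 90.5-fold below. The lowest 2 were both ASMM10SM1 probes, and their ranges over arrays overlap.

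Signal strength was the next axis. Strength was taken as the mean log2 signal of both colours over the 3 arrays, and the members were cut into 10 groups of equal size, whose median signal rose from 200 in the weakest to 23351 in the strongest. The middle of the ratios moved little with strength, apart from the weakest group, and their width grew. The weakest group had a median log2 ratio of -0.39, and of -0.47, -0.44 and -0.33 on arrays 1, 2 and 3. The next had 0.01, and the 8 above it lay between 0.03 and 0.13.

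From the weakest to the strongest group the interquartile range of the ratios was 1.15, 1.27, 1.46, 1.59, 1.64, 1.82, 1.88, 2.14, 2.18 and 2.13 log2 units. It widened at each step up to the ninth group and was slightly narrower in the strongest. On arrays 1, 2 and 3 the range was 1.08, 1.19 and 1.62 in the weakest group and 2.02, 2.31 and 2.23 in the strongest, so it was wider at high signal on each array. Across probes the Spearman correlation with strength was 0.054 for the ratio and 0.188 for its size, given as descriptions because ratio and strength come from the same spots. With strength taken from the cKO arrays, which share no spot with the ratios, the latter was 0.192. The interquartile range then went from 1.19 to 2.15. The members were the same in both orders. The filter on both colours limits how large a ratio a weak probe can have, and its part in the widening was not tested.

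The calls were uneven in the weakest group and near even in the strongest. Above the median probe were 10.6% in the weakest group, 37.2% in the fifth and 38.5% in the strongest. Below it were 40.7%, 30.2% and 38.6%. Only in the weakest group did the share called below exceed 1.5 times the share called above. This group was also measured least well: 18.2% of its probes were well above background in both colours on all 3 arrays, against 92.5% in the fifth and 93.6% in the strongest, and the median SD over arrays was 0.456 there and 0.270 in the strongest. The part of these values in the low median was not tested.

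The trend of the median depended on the colour that defined strength. Ordered by the supernatant signal alone, the median ratio fell from 0.66 in the weakest group to -0.78 in the strongest, and ordered by the IP signal alone it rose from -1.04 to 0.66. Each of these orders uses one side of the ratio itself. The processed signals had been dye-normalised by the scanner software with a factor that changed with signal strength, so this trend was read on values already adjusted for strength. In the signals before that step the weakest group had medians of -0.40, -0.26 and -0.33 on arrays 1, 2 and 3, and the strongest had 0.18, -0.22 and -0.17. Without dye normalisation the interquartile range went from 1.14 to 2.12, close to the values with it.

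The probes carry prefixes that name classes of the array design, whose meaning the sources used here do not give. ASMM10EP3A was the largest class, with 18945 members of 48057 probes (39.4%). ASMM10EP3B had 2389 of 8497 (28.1%) and ASMM10SM1 had 1289 of 4087 (31.5%). The other members were 29 of 50 A_51_P probes, 21 of 102 ASSPINKEIN probes, whose name points to spike-in controls, and 14 of 15 CUST probes. None of the 15 MM9NEGATIVE probes, named as negative controls, passed the filter. The medians of ASSPINKEIN and CUST were 0.05 and 0.09.

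ASMM10SM1 probes lay lower than the rest. Their median log2 ratio was -0.79, with quartiles of -1.95 and -0.20, and -0.76, -0.81 and -0.84 on arrays 1, 2 and 3. The 3 arrays lay close together, and all had the same sign. Of the 1289 members 792 were called below the median probe and 115 above it, 61.4% and 8.92%, against 33.8% and 33.2% of all probes tested. In ASMM10EP3A the shares below and above were 32.1% and 34.7%, with a median of 0.07, and in ASMM10EP3B they were 32.5% and 34.0%, with a median of 0.05.

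The median of ASMM10SM1 minus that of all other members was -0.81, -0.87 and -0.90 on arrays 1, 2 and 3, a mean of -0.86 ± 0.05 (SD, n = 3) or 1.82-fold. The offset was larger than its spread over arrays by far, but an exact two-sided sign-flip test over 3 arrays gave p = 0.25, the smallest p that 3 arrays allow. The offset of ASMM10EP3B was 0.016, 0.027 and 0.054, close to 0 beside that of ASMM10SM1. With normexp background correction in place of the processed signals the offset of ASMM10SM1 was -0.37 and that of ASMM10EP3B 0.0048.

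ASMM10SM1 probes were dimmer in the IP and brighter in the supernatant than the median member, by -0.57 and 0.54 on the log2 scale. They made up 5.68% of the members, 1.53% of those called above and 10.3% of those called below. Their share grew toward the low end: 161 of the 516 probes at least 8-fold below the median probe were ASMM10SM1, or 31.2%, and 0 of the 325 at least 8-fold above it. At least 4-fold below were 314 of the class (24.4%), against 6.5% of ASMM10EP3A and 7.37% of ASMM10EP3B, and at least 4-fold above were 5 (0.388%). Detection in the class was similar in both colours, with 39.7% of all its probes well above background in the IP on at least 2 arrays and 36.7% in the supernatant. In ASMM10EP3A those shares were 56.6% and 40.8%.

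The class difference was present at every strength. In each of the 10 strength groups the ASMM10SM1 median lay below that of the other probes. From the weakest to the strongest it was -0.90, -0.70, -0.62, -0.51, -0.69, -0.75, -0.66, -0.87, -2.23 and -1.21, while the other probes had -0.36 in the weakest group and between 0.03 and 0.21 in the others. The widest gap was in the ninth, with -2.23 against 0.10 for the other probes. The lower quartile of the class was -4.41 there. Of its 81 probes in that group 76.5% were called below, against 36.9% of all probes in the group. The strongest group held 56 probes of the class, of which 28.6% were called above, against 38.5% of all probes in the group. Averaged within strength groups, the offset was -0.91.

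Gene names were available for A_51_P probes, which are printed in repeat spots, 6 to 10 of them kept per array. Of these 50 probes 45 matched a symbol in the RefSeq gene table. Of the 28 named members 16 were called above the median probe, 4 below it and 8 were not called, where 33.2% of all probes tested were above and 33.8% below. With the member that has no symbol, 58.6% of the 29 A_51_P members were above. The median ratio of the 29 A_51_P members was 0.91, against 0.01 for all members. They were also brighter than ASMM10EP3A members, with a median strength of 10.98 against 9.68 log2 units. Their median SD over arrays was 0.214, against 0.306 in ASMM10EP3A. The part of strength and of repeat spots in the shares called was not tested. The named probes cover few pathways: of the 11 m6A writers and 11 readers fixed as lists, 0 had a named probe, and of 6 AlkB family genes only Alkbh4 had one.

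The fatty acid oxidation and peroxisome list had 4 of its 11 genes on the array, all members, of which 3 were above the median probe and 1 was not called, beside 33.2% above among all probes and 58.6% among A_51_P members. Ppara encodes the nuclear receptor that switches on fatty acid catabolism. Its processed signals on arrays 1, 2 and 3 were 17648, 20603 and 21607 in the IP and 3015, 1740 and 3172 in the supernatant, which gave log2 ratios of 2.65, 3.72 and 2.81. Array 2 had the highest ratio and the lowest supernatant signal. The mean was 3.06 ± 0.58 (SD, n = 3), or 8.34-fold above the median probe, with 6.13e-05 as the adjusted p of limma.

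Cpt1a, the carnitine acyltransferase of the outer mitochondrial membrane, had IP signals of 10362, 10436 and 10849 and supernatant signals of 3878, 2180 and 3781. The IP was level, and array 2 again had the lowest supernatant, so that its ratio of 2.42 was above the 1.52 and 1.56 of arrays 1 and 3. The mean ratio of Cpt1a was 1.83 ± 0.51, with an adjusted p of 3.51e-04. Pex11a, which takes part in peroxisome division, had IP signals of 12348, 10528 and 11584 and supernatant signals of 3679, 3042 and 3016. Its ratios of 1.85, 1.95 and 1.98 were the closest together of all A_51_P members, with a mean of 1.93 ± 0.07 and an adjusted p of 8.66e-05. Acaa2, the mitochondrial thiolase that ends a cycle of beta-oxidation, had 0.32 ± 0.14 and was not called, with an adjusted p of 0.140. With detection in both colours required on all 3 arrays Acaa2 had 0.44 and was called (adjusted p = 0.0379 in limma).

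Of 4 named genes of endosomes, caveolae and membrane traffic, all members, 2 were above the median probe, a share near the 58.6% of all A_51_P members. Rab5a, a GTPase that directs the fusion of early endosomes, had IP signals of 3644, 11687 and 5548 and supernatant signals of 815, 883 and 395. Its ratios were 2.26, 3.88 and 3.85, with array 1 apart from arrays 2 and 3. The mean of 3.33 ± 0.93, 10.1-fold, was higher than that of 99.3% of all members (adjusted p = 1.26e-04 in limma's test). The means of Rab5a and Ppara differ by less than their spread over arrays.

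Uhrf1bp1l, whose protein takes part in endosome traffic, had IP signals of 11131, 20191 and 13860 and supernatant signals of 3743, 2183 and 3524. Its ratios were 1.67, 3.37 and 2.01, with array 2 the highest as in Ppara and Cpt1a. The mean was 2.35 ± 0.90, with an adjusted p of 5.26e-04. Cav2, a caveolin of membrane pits, had the widest spread of all A_51_P members, with -0.26, 1.26 and 1.92 and a mean of 0.97 ± 1.12. Its supernatant passed background on 2 of 3 arrays, and the gene was not called (adjusted p = 0.0529 in limma's test), but without array 1 its ratio was 1.59 and it was. Tm9sf1 had 0.08 ± 0.30 and was not called.

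The list of nuclear and RNA regulators had 4 named genes on the array, of which the 2 members were both above the median probe, as were 33.2% of all probes and 58.6% of A_51_P members. Nup50, a protein of the nuclear pore basket, had IP signals of 1218, 1048 and 1194 and supernatant signals of 370, 404 and 355. Its ratios of 1.82, 1.53 and 1.79 were close together, with a mean of 1.71 ± 0.16 and an adjusted p of 1.48e-04. Carhsp1, an RNA-binding protein with a cold-shock domain, had ratios of 1.37, 1.84 and 1.61, a mean of 1.61 ± 0.23 and an adjusted p of 2.33e-04. Taf1a and E2f1 did not pass the filter.

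Single named members of other lists were also above the median probe. Alkbh4, a dioxygenase of the family of the m6A erasers and not itself counted among them, had ratios of 1.47, 1.28 and 1.34, a mean of 1.36 ± 0.09 and an adjusted p of 3.69e-04. Dnajc11, a protein tied to the organisation of mitochondrial cristae, had 1.45, 2.14 and 1.68, a mean of 1.76 ± 0.35 and an adjusted p of 2.35e-04. The glycolysis enzyme Gpi1, glucose-6-phosphate isomerase, had 0.63, 0.99 and 0.96, a mean of 0.86 ± 0.20 and an adjusted p of 0.00403. Each of these 3 genes had the same sign on all arrays.

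A developmental and a signalling gene were also above the median probe. Lhx1, a LIM homeodomain transcription factor of early kidney development, had ratios of 1.15, 1.56 and 1.25, a mean of 1.32 ± 0.21 and an adjusted p of 5.47e-04. Bambi, a decoy receptor that dampens TGF-beta signalling, had 1.04, 1.74 and 1.04, a mean of 1.28 ± 0.40 and an adjusted p of 0.00128.

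A further 3 genes of no list were above the median probe. Apoe, the apolipoprotein of lipid transport and uptake, had 0.42, 1.68 and 0.97, a mean of 1.02 ± 0.63 and an adjusted p of 0.00918, and without array 2 it had 0.70 and was not called (adjusted p = 0.0585 in limma's test). Gsdmd, the pore-forming protein of pyroptosis, had 0.81, 1.14 and 0.76, a mean of 0.91 ± 0.21 and an adjusted p of 0.00330. Lhfp had 0.36, 0.64 and 0.69, a mean of 0.57 ± 0.18 and an adjusted p of 0.0244, and it was not called without array 2 (0.0986) or array 3 (0.109). Gsdmd was called whichever array was left out. With normexp background correction Lhfp had 0.38 and was not called (adjusted p = 0.0635 in limma). Genes with ratios closer to 0 under normexp that were still called had 0.90 for Nup50, 0.55 for Alkbh4, 0.75 for Lhx1 and 0.41 for Gsdmd.

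The class I histocompatibility list had 2 named members. H2-Q7 had ratios of 0.62, 0.43 and 0.50, a mean of 0.52 ± 0.10 and 0.0305 as the adjusted p of limma, and it was not called when any one of the arrays was left out. H2-M2 had 0.35 ± 0.13 and was not called, with an adjusted p of 0.112, but with detection in both colours required on all 3 arrays it had 0.47 and was called (0.0268). Both genes have close relatives in the genome, so a probe could take signal from them.

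Both named genes of the cytoskeleton and ribosome list lay below the median probe, as did 33.8% of all probes tested and 13.8% of A_51_P members. Actb, cytoplasmic beta-actin and a common reference transcript, had IP signals of 3581, 5364 and 4068 and supernatant signals of 11341, 13419 and 9256. Its ratios were -1.56, -1.17 and -1.15, with array 1 the lowest, a mean of -1.29 ± 0.23 and an adjusted p of 6.47e-04. Rps4l, which RefSeq lists as a transcribed pseudogene related to ribosomal protein genes, so that its probe could take their signal, had -0.55, -0.60 and -0.27, a mean of -0.47 ± 0.18 and 0.0474 as the adjusted p of limma. Rps4l was not called when any one of the arrays was left out.

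Prdx2, a peroxiredoxin that removes hydrogen peroxide, was the lowest of the named genes. Its IP signals were 5554, 11274 and 6532 and its supernatant signals 25042, 39886 and 36340. The ratios were -2.07, -1.67 and -2.44, all under those of Actb on the same array. The mean was -2.06 ± 0.39, or 4.17-fold below the median probe, with an adjusted p of 1.34e-04, and 7.09% of all members had a lower one. The other named gene of the antioxidant and glutathione transferase list, Gsta4, which detoxifies lipid aldehydes, had -0.31 ± 0.21 and was not called, with an adjusted p of 0.162.

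Of the other genes without a call, Duox1, an oxidase that makes hydrogen peroxide, had 0.25, 0.23 and 1.28, so that array 3 stood apart, and a mean of 0.58 ± 0.60 (adjusted p = 0.0714 in limma's test). Its supernatant was well above background on 2 of 3 arrays. Gamt, an enzyme of creatine synthesis, had 0.01 ± 0.29, and the olfactory receptor gene Olfr166 had -0.09 ± 0.07. A ratio near 0 places these transcripts at the median probe of the array and does not show that they lack m6A.

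Among all probes outside the set, 9588 passed in the IP but not in the supernatant, and 778 the reverse. The 21 A_51_P probes outside the set were uneven in the same direction. In 11 of them the IP was well above background on at least 2 arrays and the supernatant on fewer, and in 0 of them the reverse held. Those 11 were Anxa8, Cep41, E2f1, Hyal3, Kcnn2, Mbp, Mzb1, Olfr1307, Taf1a, Trp53rka and 1 probe without a symbol. The remaining 10, among them Atg3, Chgb, Gabrg1, Hspb7, Il2, Spats1 and Tyr, were well above background on at least 2 arrays in neither colour. A filter on both colours thus left out transcripts whose supernatant was too dim to give a ratio.

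Repeat spots separate the error of a spot from the spread between arrays. Within an array the ratios of the repeat spots of an A_51_P member had a median SD of 0.112 log2 units, from 0.0449 to 0.381. The mean over the spots had a median standard error of 0.0366. Between arrays the median SD was 0.214, from 0.0693 to 1.12. In 28 of 29 members the SD over arrays exceeded the standard error of the spot mean, and in 23 it exceeded the SD of single spots. Most of the spread of these ratios therefore lay between arrays, where kidney, immunoprecipitation and hybridisation cannot be told apart. In 18 of the 29 the highest of the 3 ratios was on array 2, as it was in 35.9% of all members with a ratio on 3 arrays.

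The same measures were taken on the cKO arrays. They cover the 22562 probes that passed the filter in both genotypes. The offset of the 1277 ASMM10SM1 probes from the other probes amounted to -0.80, -0.86 and -0.90 in the WT kidneys of replicates 1, 2 and 3. The cKO kidneys of replicates 1, 2 and 3 gave -0.48, -0.64 and -0.52. The class lay below the others on all 6 arrays and was farther from them in WT, without overlap. The difference of 0.30 had p = 0.1 in an exact two-sided permutation test of 3 against 3 arrays, where no smaller p is possible. The ratios of all members were also narrower on the cKO arrays, so a smaller offset was not particular to this class. Over the members of each genotype the interquartile range was 1.60, 1.79 and 1.90 on WT arrays 1, 2 and 3. On cKO arrays 1, 2 and 3 it was 1.29, 1.41 and 1.43. The part of this narrowing in the difference of the offset was not tested.

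The file headers give a shared scan time for WT arrays 1 and 3 (scan 1) and another for WT array 2 and all cKO arrays (scan 2). Within scan 2 the difference in the ASMM10SM1 offset was 0.31. For ASMM10EP3B WT kidneys had offsets of 0.020, 0.027 and 0.050 and cKO kidneys of 0.145, 0.094 and 0.059, a difference of 0.07 with p = 0.1 in the same exact test and 0.07 within scan 2. The widening of the interquartile range from the weakest to the strongest group had values of 0.95, 1.11 and 0.37 in WT kidneys against 0.19, 0.63 and 0.87 in cKO kidneys, which overlap, with p = 0.5 in the exact test. The Spearman correlation of ratio and strength differed by 0.045 with p = 0.3. None of these measures could pass 0.05, since the exact test of 3 against 3 arrays cannot give a p under 0.1.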

How the data were processed

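Two-colour arrays of 3 WT kidneys were used, with groups and replicate numbers from the labels. Total RNA was immunoprecipitated with a rabbit polyclonal antibody, and IP and supernatant were labelled as cRNA, per the labels' protocols. The deposited values are linear intensity values of both colours from Agilent Feature Extraction 11.0.1.1, per the submitters' processing notes, and per the file headers they are background-subtracted and dye-normalised. Each array had 62976 spots, 1439 of them control spots, and 0 were saturated. Outlier spots (101, 132 and 72) were left out.

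Repeat spots were averaged on the log2 scale, and a probe with repeats was well above background if at least 0.5 of its spots were. Log2 ratios were centred on the median of each array over the members and tested against 0 with limma 3.58.1 (lmFit, eBayes) in R 4.3.3 with the package data.table, version 1.17.8, two-sided, with adjusted p under 0.05. Of the members 22538 had a ratio on 3 arrays and 149 on 2. The number of arrays limits the precision. Both fractions of a kidney share an array and a replicate number, and the deviations of IP and supernatant from their group means correlated at 0.55, 0.44 and 0.60, so the ratio is a paired measure.

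Members and gene lists were chosen with earlier results of these data known. Every named A_51_P member is counted. Array values are given for the 10 highest and 10 lowest of those called and, chosen after their values were seen, for Cav2, Duox1 and Olfr166, the others by mean and SD, and non-members by name. The values of 1 named gene are not reported here. At most 2 unnamed probes are given per direction. Symbols come from RefSeq (GRCm38.p6). On simulated data of 22687 probes, 100 were given a 2-fold and 100 a 4-fold change. Of these, 74% and 100% were recovered, and 19 unchanged probes were called. In the kidneys 67% of the probes were called, so these shares need not hold there. Alternatives were other background correction, dye normalisation, filters, centring, pairing, strength measures and each array left out. Probe sequences are not printed.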

Additional observations from a re-analysis of the deposited data

Results flagged for a closer look

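The ratio of Olfr166, an olfactory receptor gene of a large family whose relatives could share its probe, lay on opposite sides of the median probe in the genotypes. It was -0.06, -0.04 and -0.17 on the 3 WT arrays and 0.02, 0.05 and 0.10 on the 3 cKO arrays, a difference of 0.148 with an SE of 0.186 in limma's fit. The adjusted p of that difference was 0.700, so it did not pass the threshold.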

How the results depend on the processing

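The numbers of probes above and below the median probe stayed within 1.5 times of 7539 and 7672 in every alternative run except the 2-fold threshold, with 4859 and 4962. Normexp gave 6011 and 5243. Centring on the 75th percentile, which puts the median member at -0.12, gave 6670 and 8516, and no centring 6809 and 8273. Leaving out 1 array gave 6269 to 7013 above and 6412 to 6987 below. For A_51_P probes it gave 14 to 17 above and 3 below. Without the pairing (no replicate block) 5752 probes were above and 6562 below, and 2 A_51_P probes were below in place of 4. Among the genes that lost their calls were Rps4l, Lhfp and H2-Q7.

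The median ratio of the strongest minus the weakest strength group was 0.42. It was 0.25 without dye normalisation, 0.14 after loess, 0.24 with 5 groups, 0.78 for probes well above background on all 3 arrays, 1.70 by IP strength and 0.41 to 0.63 without 1 array. It reversed to -0.34 with 1 array required and to -1.44 by supernatant strength. The widening of the interquartile range was 0.98, 1.73 with normexp, and 0.83 to 1.07 without 1 array. The ASMM10SM1 offset of -0.86 was -0.37 with normexp, -0.78 with all 3 arrays required, -0.91 within strength groups and -0.85 to -0.84 without 1 array. The ASMM10EP3B offset, 0.047 on mean ratios, was 0.0048, 0.019 with all 3 arrays required, 0.028 within scan 1 and 0.012 to 0.026 without 1 array. Between genotypes, leaving out 1 array moved the difference to 0.27 to 0.35 for ASMM10SM1, 0.044 to 0.086 for ASMM10EP3B, -0.47 to -0.06 for the widening and 0.016 to 0.073 for the rank correlation.

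Of 390 settings tried for named genes, 24 lost a call, 6 gained one (Acaa2 and H2-M2 with all 3 arrays required, Duox1 with all 6 arrays in 1 fit, and Cav2 there, without array 1 and with trend and robust variance) and 13 turned the sign of a gene without a call. Tm9sf1 turned to -0.048 without dye normalisation, to -0.055 with 1 array required, to -0.014 without centring and to -0.047 with 75th percentile centring, and ranged from -0.053 to 0.25 without 1 array. Gamt turned to -0.033, -0.13, -0.092 and -0.13 in the same settings, to -0.078 after loess and -0.047 without the pairing, and ranged from -0.15 to 0.15. Olfr166 turned to 0.027 with all 3 arrays required. The causes were not tested. The scan as a random block was not run, since 3 arrays do not allow it.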
